A study of Mus musculus with 8 samples.

Results

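Of the 11251 regions with acetylation of histone H3 at lysine 9 (H3K9ac) in epithelial cells of the mouse terminal ileum, 527 were distal intronic: the deposited annotation placed them in an intron, and more than 5000 bp from the nearest transcription start site (TSS). Of the others, 10196 lay within 5 kb of a TSS and 506 were distal and intergenic. Cells came from wild-type C57Bl/6 mice given vehicle, or butyrate at 150 mM for 7 days, with 3 H3K9ac libraries per group, called S1 to S3 for vehicle and S4 to S6 for butyrate. The 2 input libraries were not analysed here. The labels do not give the age or sex of the mice or the route of butyrate. Nor do they tie each library to its own animal, and the p-values below therefore rest on library-to-library variation that may be partly technical.

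H3K9ac is laid down by acetyltransferases at active promoters and at many enhancers, and is removed by histone deacetylases. Introns hold enhancers as well as promoters of shorter transcripts of the same gene, and a region called distal from the start of the full-length transcript can be either. Butyrate, a short-chain fatty acid that gut bacteria make from fibre, is a fuel of the epithelium and an inhibitor of class I and class II deacetylases. In the ileal epithelium, enhancers that open during differentiation are bound by factors such as HNF4, CDX2 and GATA4.

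Levels are given as RPKM, reads per kilobase of a region divided by the library's effective size. These sizes were 17846924 to 25805595 reads, and 1255251 to 1828591 reads per library lay in regions. The scaling equalised the libraries over all regions, so that a change shared by all regions could not be seen, and each difference below is relative to the other regions. The labelled cell type was checked at regions within 5 kb of marker starts. All 10 markers of intestinal epithelium had a region, at 3.07 to 7.83 RPKM, as had 4 of 5 markers of ileal enterocytes, at 1.18 to 3.69 RPKM. Of 4 T cell markers and of 5 markers of leukocytes and macrophages 1 each had a region, at 0.969 and 0.893 RPKM, and none of the markers of goblet, Paneth, enteroendocrine and tuft cells, B cells, fibroblasts, smooth muscle, endothelium or neurons and glia had one.

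Distal intronic regions differed widely in base composition, and the central 300 bp of 6 of them show the range. All are the plus strand of mm10, read 5′ to 3′ from the RefSeq copy of that assembly, with each CpG dinucleotide in capitals. The first set holds CpG-rich regions, which carried more H3K9ac. Kdm6b (chr11:69410158-69410457) encodes a histone H3 demethylase that opposes Polycomb, and its intron held the densest of the 527 regions. Mical3 (chr6:121109853-121110152) encodes an actin-oxidising monooxygenase, and the region covers a GENCODE start of this gene. Wnt3 (chr11:103810047-103810346) encodes a Wnt ligand of the crypt, and the region had no GENCODE start within its 500 bp.
Kdm6b: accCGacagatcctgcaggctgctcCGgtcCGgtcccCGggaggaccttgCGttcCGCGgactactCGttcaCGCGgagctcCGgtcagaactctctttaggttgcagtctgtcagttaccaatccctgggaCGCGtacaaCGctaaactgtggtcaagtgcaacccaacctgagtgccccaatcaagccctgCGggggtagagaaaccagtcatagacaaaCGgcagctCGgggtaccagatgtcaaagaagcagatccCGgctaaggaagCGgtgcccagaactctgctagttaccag
Mical3: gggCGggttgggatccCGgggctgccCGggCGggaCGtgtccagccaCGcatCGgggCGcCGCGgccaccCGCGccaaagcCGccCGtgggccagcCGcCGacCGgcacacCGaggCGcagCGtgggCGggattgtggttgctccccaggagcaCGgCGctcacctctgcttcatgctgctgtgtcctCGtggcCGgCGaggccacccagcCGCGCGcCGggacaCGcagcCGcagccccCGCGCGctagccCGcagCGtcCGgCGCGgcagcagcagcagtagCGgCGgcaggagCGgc
Wnt3: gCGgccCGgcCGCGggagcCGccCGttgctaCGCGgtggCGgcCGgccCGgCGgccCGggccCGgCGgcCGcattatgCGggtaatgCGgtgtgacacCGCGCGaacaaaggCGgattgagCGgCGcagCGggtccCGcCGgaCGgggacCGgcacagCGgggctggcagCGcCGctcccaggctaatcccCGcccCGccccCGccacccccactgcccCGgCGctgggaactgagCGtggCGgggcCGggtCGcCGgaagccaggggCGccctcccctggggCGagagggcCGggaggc

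The second set holds CpG-poor regions that are described below for their values with butyrate. Coro2a (chr4:46574790-46575089) encodes an actin-binding protein of the coronin family that also associates with the NCoR corepressor. Cracdl (chr1:37664974-37665273) is listed in the deposited table under its older name 2010300C02Rik. Mgam (chr6:40635547-40635846) encodes maltase-glucoamylase, a brush border enzyme that releases glucose from starch.
Coro2a: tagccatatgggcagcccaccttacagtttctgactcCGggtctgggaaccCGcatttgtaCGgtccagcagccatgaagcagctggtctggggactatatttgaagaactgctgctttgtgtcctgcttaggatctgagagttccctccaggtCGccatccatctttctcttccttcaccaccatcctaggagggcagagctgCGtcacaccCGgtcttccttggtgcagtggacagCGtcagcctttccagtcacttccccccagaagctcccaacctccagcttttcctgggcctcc
Cracdl: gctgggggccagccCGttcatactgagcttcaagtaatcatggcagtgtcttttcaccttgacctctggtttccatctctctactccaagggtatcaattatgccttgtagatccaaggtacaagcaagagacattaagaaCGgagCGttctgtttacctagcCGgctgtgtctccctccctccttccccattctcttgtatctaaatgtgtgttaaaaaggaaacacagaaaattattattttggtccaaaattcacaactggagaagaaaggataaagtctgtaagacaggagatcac
Mgam: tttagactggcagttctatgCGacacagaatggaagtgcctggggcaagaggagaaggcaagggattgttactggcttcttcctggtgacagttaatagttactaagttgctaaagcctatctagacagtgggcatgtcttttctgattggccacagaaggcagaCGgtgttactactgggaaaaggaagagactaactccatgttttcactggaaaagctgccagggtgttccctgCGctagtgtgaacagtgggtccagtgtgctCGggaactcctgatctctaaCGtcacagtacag

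The capitals fill the first set and nearly vanish from the second. The stretches at Kdm6b, Mical3 and Wnt3 held 19, 43 and 45 CpGs, or 0.755, 0.951 and 0.939 of the number that their C and G content would give (observed over expected CpG). At Coro2a, Cracdl and Mgam 7, 4 and 5 CpGs remained, a ratio of 0.303, 0.281 and 0.291.

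Most distal intronic regions were of the second kind. Their median ratio of observed over expected CpG was 0.18 and their median GC content 46.3%, against 0.609 and 56.3% in regions within 5 kb of a TSS and a ratio of 0.262 in distal intergenic regions. Only 25 of the 527 (4.74%) had the composition of a CpG island (GC content over 50% and a ratio over 0.6 in the central 300 bp), against 45.9% within 5 kb of a TSS and 12.8% of distal intergenic regions. Repeats covered a median of 14.75% of a distal intronic region, and the deposited annotation put the centre of 62 in a SINE, of 26 in a LINE and of 26 in an LTR element.

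Distal intronic regions were short and weakly acetylated. Their lengths ran from 500 to 14052 bp with a median of 632 bp, and 213 (40.4%) were exactly 500 bp long, against a median of 636.5 bp and 40.7% in distal intergenic regions and of 1503 bp and 12.8% within 5 kb of a TSS. Mean RPKM over the 6 libraries ran from 0.622 to 7.12 with a median of 1.17 (quartiles 0.954 and 1.70). Regions within 5 kb of a TSS had a median of 3.22 RPKM and distal intergenic regions 1.36, so that both exceeded the intronic ones, as the cumulative plot of levels shows. A distal intronic region had a median of 16.5 reads per library, against 19.2 in distal intergenic regions and 107 within 5 kb of a TSS, and 357 of 527 had fewer than 25. Library medians over the 527 regions were 1.16, 1.23 and 1.29 RPKM in vehicle and 1.30, 1.34 and 1.24 in butyrate, with overlapping groups.

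**Figure D1:**
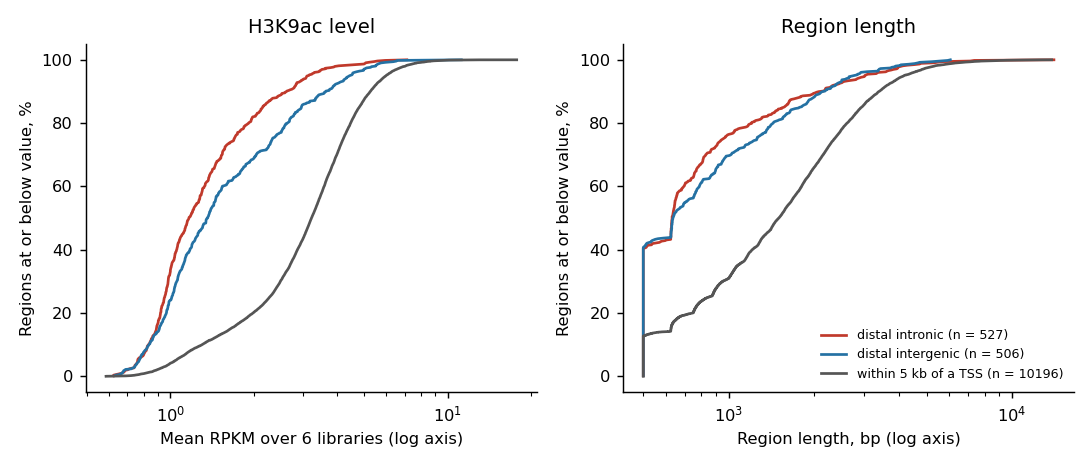
Cumulative share of regions (vertical axis, %) against the mean RPKM over 6 libraries (left) and the region length in bp (right), both on log axes, for distal intronic, distal intergenic and TSS-near regions. The distal intronic curve lies left of the TSS-near curve in both panels, with medians of 1.17 against 3.22 RPKM and 632 against 1503 bp.

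Many regions that count as distal carried a start in another annotation. The deposited distances refer to the nearest start of the authors' annotation. In GENCODE release M21, 115 of the 527 regions (21.8%) held a start, of which 100 held a start of the host gene itself, the gene whose intron it is, and 70 held the start of a protein-coding transcript. A GENCODE start lay in 29.1% of distal intergenic regions, in 79.5% of those within 5 kb of a TSS and in 74.5% of all regions. The centres of 189 distal intronic regions (35.9%) lay within 1 kb of a GENCODE start, and those of 226 (42.9%) lay over 5 kb from every one. The 4 regions farthest from the deposited start all held a GENCODE start of their host. They lie in Utrn, which encodes utrophin (313227 bp), Smyd3, a lysine methyltransferase (269210 bp), Etl4 (217462 bp) and Pde4d, a cAMP phosphodiesterase (-217397 bp from the start of Mir1904). Of the 25 regions over 100 kb from the deposited start, 14 held a GENCODE start.

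Regions with a GENCODE start were stronger and longer than those without. The 115 with a start had a median of 1.86 RPKM, 1377 bp and 53 reads per library, and the other 412 had 1.07 RPKM, 578 bp and 14.2 reads. Island composition was found in 13.9% of the first and 2.18% of the second. Of the 50 regions with the highest RPKM, 31 held a GENCODE start and 13 had island composition, against 3 and 1 of the 50 with the lowest. The part of length and base composition in these levels was not tested.

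**Figure D2:**
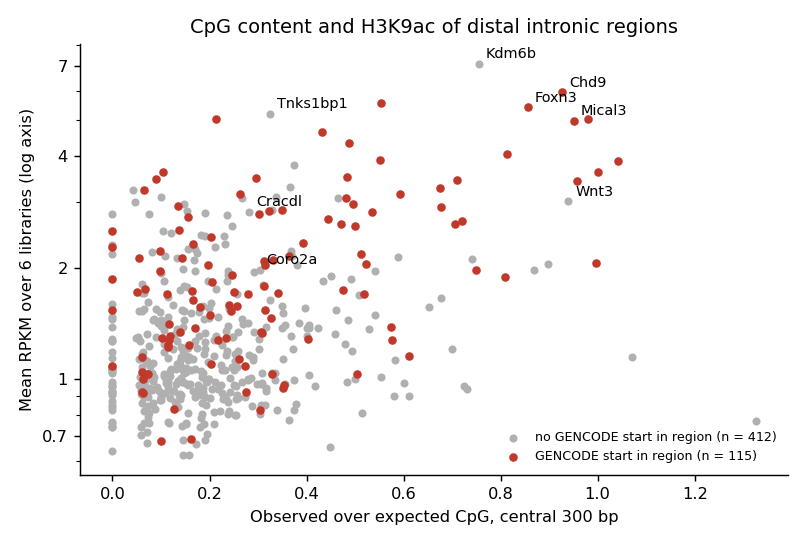
Mean RPKM over 6 libraries (vertical, log axis) against observed over expected CpG in the central 300 bp (horizontal) for the 527 distal intronic regions, red where a GENCODE start lies in the region (115) and grey where none does (412). Kdm6b, at 7.12 RPKM, and Wnt3 are CpG-rich without a GENCODE start, whereas Chd9, Foxn3 and Mical3 are CpG-rich with one.

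Of the 10 densest regions 8 held a GENCODE start. Kdm6b was first at 7.45, 8.23 and 6.83 RPKM in vehicle and 6.90, 6.45 and 6.84 in butyrate, with 503 reads per library, in its second intron. This region of 3343 bp (chr11:69408636-69411979) had no GENCODE start, the nearest being 3368 bp from its centre. At 5886 bp from the deposited start it is close to the 5000 bp limit, and it carried more H3K9ac than the region at the start of Kdm6b (3.62 RPKM). Chd9, which encodes a chromodomain helicase, had a vehicle mean of 6.13 ± 0.72 RPKM and a butyrate mean of 5.77 ± 0.21 (± SD over n = 3 libraries, vehicle first, as for all such pairs below) in a CpG-rich region at -23883 bp from the deposited start. The region in Pxn, the gene of the focal adhesion protein paxillin, was assigned in the deposited table to the neighbouring ribosomal gene Rplp0 and had 5.66 ± 0.43 and 5.48 ± 0.47 RPKM.

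Other dense regions lay at Foxn3, a forkhead repressor (5.42 ± 0.76 and 5.41 ± 0.52 RPKM), and at Elf4, an ETS factor (4.82 ± 0.08 and 5.24 ± 0.75). Mia3, needed for the export of large cargo from the endoplasmic reticulum, had 4.99 ± 0.40 and 5.12 ± 0.34, and Tacc2, a centrosomal protein, 4.74 ± 0.20 and 4.58 ± 0.15. Tnks1bp1, a tankyrase-binding protein, had 5.07 ± 0.31 and 5.36 ± 0.21 and is the other region of the 10 without a GENCODE start. Ptprd, a receptor tyrosine phosphatase, had 4.36 ± 0.53 and 4.32 ± 0.02 in its intron against 1.16 RPKM in the region at its deposited start. None of these differed between treatments by more than the interval of its log2 fold change, apart from Mical3, which is described below.

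The 5 longest regions all held a GENCODE start of their host gene. They were Actn4, an actin-bundling alpha-actinin (14052 bp, the longest of the 11251 regions, 963 reads per library), and Dnmbp, a Cdc42 exchange factor (7358 bp). Next came Rbm47, an RNA-binding partner of the editing enzyme of apolipoprotein B (7128 bp), Mylk, the myosin light chain kinase (5717 bp), and Bcar3, an adhesion adaptor (5466 bp). At Actn4 the libraries had 3.44, 3.32 and 3.18 RPKM in vehicle and 3.20, 3.20 and 3.05 in butyrate, with a log2 fold change of -0.06 ± 0.10 (SE).

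The 527 regions lay in 439 host genes, most of which had a single one. There were 375 hosts with 1 region, 47 with 2, and 17 with 3 or more. The first intron held 224 regions (42.5%), the second 100 and the third 66. First and later introns had similar medians, 1.21 and 1.15 RPKM. The region lay downstream of the nearest start in 434 cases, and that start belonged to the host in 423 (80.3%). The median distance was 18280 bp, and the median level was 1.20 RPKM at 5 to 10 kb, 1.15 at 10 to 50 kb and 1.20 beyond 50 kb. Just inside the limit were Stat3 at 5023 bp (0.891 ± 0.12 RPKM in vehicle and 1.01 ± 0.47 in butyrate) and Pisd at 5025 bp (2.66 ± 0.59 and 3.27 ± 0.41). Just outside it were intronic regions of Lzts3 at 4964 bp (3.65 ± 0.22 and 4.04 ± 1.19) and Ddhd2 at 4967 bp (0.725 ± 0.42 and 1.21 ± 0.31).

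Tex14, a germ cell gene of intercellular bridges, held the most, 6 regions over 47.5 kb of chromosome 11, each with 0.83 to 1.36 RPKM. The centres of 5 of them lay 380 to 573 bp from the GENCODE start of 1 of 4 genes of U3 small nucleolar RNA (Rnu3b1 to Rnu3b4) inside Tex14. These genes are near-identical copies, so that reads may be shared among them and the level of each region is uncertain. Ston2, an endocytic adaptor, Plekha7, an adherens junction protein, Lpin2, a phosphatidate phosphatase, and Ano6, a lipid scramblase, held 4 each. The regions of Lpin2 and Ano6 were all weak, at 0.86 to 1.30 and 0.74 to 1.06 RPKM. In Plekha7 they ran from 0.79 to 2.14 RPKM and in Ston2 from 0.82 to 2.67, the highest of Ston2 covering a GENCODE start. Rere, a corepressor of the atrophin family, held 3, the highest at 3.91 RPKM over a GENCODE start and nearly equal to the region at its deposited start (3.93).

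The host gene's own start was usually more strongly acetylated. A region within 5 kb of the host start existed for 389 of the 527, with a median of 3.49 RPKM, and the median ratio of the distal to the start region was 0.363. In 31 cases the distal region was the denser one. Among these were Kdm6b, Chd9, Tnks1bp1, Tacc2 and Ptprd, and the genes of the nuclear receptor Nr5a2 (3.17 RPKM in the intron and 1.40 at the start), the efflux transporter Abcg2 (2.70 and 1.36) and Mgam (1.95 and 1.40). At Nr5a2 and Abcg2, as at Chd9, Tacc2 and Ptprd, the intronic region held a GENCODE start of the gene, while at Mgam the nearest start was 6865 bp away.

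**Figure D3:**
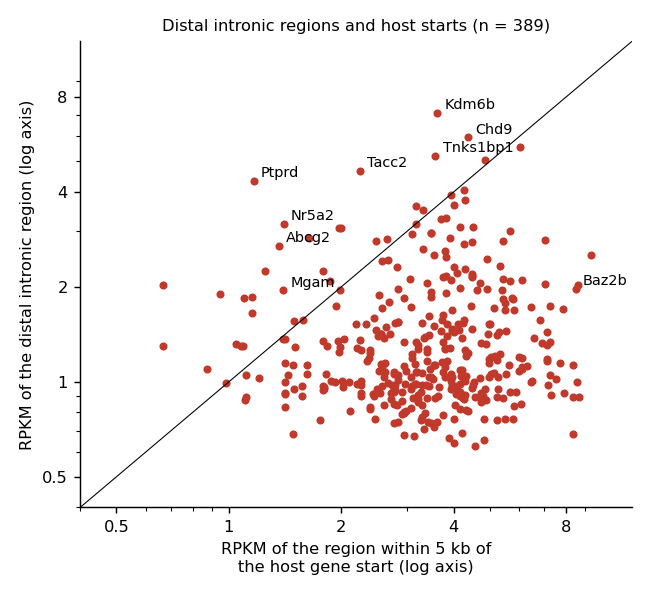
RPKM of the distal intronic region (vertical) against RPKM of the region within 5 kb of the start of its host gene (horizontal), means of 6 libraries on log axes, 389 points. The line marks equal levels, and 31 points lie above it, among them Kdm6b, Ptprd, Tacc2, Nr5a2 and Abcg2.

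Short sequence motifs of gut and general factors were counted on both strands of the central 300 bp. A match is a description of letters, not of binding. The motif of GATA factors, AGATAA, occurred in 15.4% of distal intronic regions, 17.6% of distal intergenic ones and 9.86% of all regions. TGANTCA (AP-1) was in 9.11%, 6.92% and 5.80%, TTTATNG (CDX) in 13.5%, 10.9% and 8.51%, and AGGTCA (the core of nuclear receptor sites) in 20.9%, 21.7% and 15.2%. GGAATG (TEAD) was in 17.3%, 18.8% and 12.7% and the letters of the TATA box, TATAAA, in 15.9%, 15.2% and 8.60%. TGTTTAC (FOXA) was in 4.93%, 4.35% and 3.31%. These motifs were more frequent in both distal classes than in the whole table, whose median GC content is higher (54.7%), and the part of base composition was not tested.

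Of 4 motifs of CpG-rich promoters, 3 were not found in the central 300 bp of distal intronic regions. CCGGAAGT (ETS factors) was in 0 of the 527, in 0.593% of distal intergenic and in 2.20% of all regions. TGACGTCA (CRE) was in 0, 0.791% and 0.889%, and GCGCATGCG (NRF1) in 0, 0.593% and 0.533%. GGGGNGGGG (KLF and SP factors) was in 10.6% of distal intronic regions against 17.6% of distal intergenic ones and 18.1% of all. CACGTG (E-box) was in 5.12% of distal intronic and 4.85% of all regions, and within the central 150 bp in 3.61% and 2.30%. CAAAGTCCA (HNF4) was rare in both, at 0.569% and 0.453%, as was TTGCGCAA (CEBP), at 0.19% and 0.116%. Within the distal intronic class, AP-1 letters were in 10.4% of regions without a GENCODE start and 4.35% of those with one, and TEAD letters in 19.4% and 9.57%.

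The study compared butyrate with vehicle, and across the distal intronic regions above the level limit the difference was centred on 0. All 527 together took 1.45 ± 0.04% of all reads in regions in vehicle and 1.46 ± 0.03% in butyrate (± SD over n = 3 libraries). By limma on log2(RPKM + 1), the 350 with a mean RPKM of at least 1 had a median log2 fold change of -0.01, with 168 higher and 182 lower, and all 10529 regions tested a median of 0.00. The spread was wider in distal intronic regions than in all regions tested (SD 0.21 against 0.17). So was the median margin of the 95% interval on either side (0.39 against 0.26). Distal intergenic regions were similar to the intronic ones, with an SD of 0.22 and a margin of 0.37, and the part of depth was not tested. The other 177 distal intronic regions were under the level limit and have no value in this test. Over all 527, the median log2 fold change was 0.0327 by limma without that limit and 0.0635 by voom on all regions.

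No distal intronic region passed limma's test at a Benjamini-Hochberg adjusted p of 0.05 (0 of 350; 0.0% of all regions tested), and the smallest adjusted p was 0.49. At an unadjusted p under 0.05 there were 12 higher (3.43% of the 350, against 3.35% of all regions) and 8 lower (2.29% against 3.91%). In 20 the butyrate libraries all lay above the vehicle libraries (5.71% against 6.11%), and in 22 all below (6.29% against 6.85%). These shares were close to or under those of the whole table. Of the 20 regions with an unadjusted p under 0.05, 19 were among the 245 tested without a GENCODE start and 1 among the 105 with one (SDs of the log2 fold change 0.23 and 0.14). Among the 245, 12 were higher (4.90%, against 3.35% of all regions) and 7 lower (2.86% against 3.91%). Regions without a GENCODE start had fewer reads (median 14.2 per library against 53), and the part of depth was not tested.

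Models of the recovered reads called a few. Limma's voom on regions of at least 25 reads called 1 of 170 (0.0995% of all regions called), voom on all regions called 3 of 527 (0.142% of all), and the authors' deposited table listed 2 at an FDR under 0.1 (0.249% of all). They were Coro2a in the first, Cntnap2, B4galt4 and Scap in the second, and Coro2a and Cntnap2 in the authors' deposited table.

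H3K9ac was lower with butyrate in the intron of Coro2a (chr4:46574626-46575252, the first of 11 introns, -8499 bp from the deposited start). Its libraries held 3.03, 2.06 and 3.32 RPKM in vehicle and 0.720, 1.43 and 1.28 in butyrate, from 49, 23 and 43 reads and from 10, 16 and 18. All 3 vehicle libraries lay above all butyrate libraries. The log2 fold change was -0.83 ± 0.18 (SE) by limma on log2(RPKM + 1), with an adjusted p of 0.49, and -1.32 ± 0.30 by voom on regions of at least 25 reads, with an adjusted p of 0.0145. Voom on all regions gave -1.35 and an adjusted p of 0.0539, beyond its threshold. The authors' deposited table gave -1.32 and an FDR of 0.0405. Leaving out 1 library at a time, the voom call held without S2 (adjusted p = 0.0134) and without S5 (0.0224), and was lost without S1 (0.16), S3 (0.169), S4 (0.283) and S6 (0.0738). GENCODE exons cover 52.9% of this region, and no GENCODE start lies within it. The region at the Coro2a start had 5.23 ± 0.27 RPKM in vehicle and 4.62 ± 0.16 in butyrate, and the groups did not overlap. Its log2 fold change was -0.15 ± 0.08 by limma (unadjusted p = 0.101). Voom on regions of at least 25 reads gave -0.17 there (unadjusted p = 0.020, adjusted p = 0.475).

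The calls at Cntnap2, B4galt4 and Scap rest on few reads in regions of 500 bp. Cntnap2, a neurexin-like adhesion protein best known from neurons, had 1, 4 and 1 reads in vehicle and 11, 11 and 10 in butyrate (chr6:47258119-47258619). Voom on all regions gave a log2 fold change of 2.38 ± 0.58 with an adjusted p of 0.0352, and the authors' deposited table an FDR of 0.0731. B4galt4, a galactosyltransferase of the Golgi, had 5, 0 and 8 reads and 16, 9 and 15 (chr16:38749917-38750417; 2.28 ± 0.57, adjusted p = 0.0414). Scap, the escort of the sterol-regulated SREBP factors, had 13, 8 and 15 reads and 8, 2 and 0 (chr9:110344596-110345096; -2.43 ± 0.57, adjusted p = 0.0241). In RPKM the groups did not overlap at any of the 3, though S4 and S2 both held 8 reads at Scap. All 3 had a mean of fewer than 10 reads per library. Of the distal intronic regions that weak, 31.4% did not overlap, against 8.16% of those with at least 100 reads. The share over all regions that weak is not given here, so this value cannot be called particular to distal intronic regions. How regions were called is not given, and its part in this lack of overlap was not tested. These 3 regions were under the level limit of limma on log2(RPKM + 1), which without that limit gave log2 fold changes of 0.76, 0.74 and -0.72. Leaving out 1 library at a time, the Cntnap2 call held without S2 alone, the B4galt4 call without S3 alone and the Scap call without S4 alone.

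The regions with the smallest limma p in each direction, among those with at least 25 reads, show what differences of this size look like by library, with 5 higher and 6 lower. None passed the adjusted test (adjusted p 0.49 to 0.70 by limma). On the side of higher H3K9ac with butyrate, the CpG-rich intron of Wnt3 (chr11:103809946-103810446) had 2.63, 2.13 and 2.42 RPKM in vehicle and 3.97, 3.57 and 3.38 in butyrate. Every butyrate library lay above every vehicle library, at a log2 fold change of 0.45 ± 0.11 (SE) and an unadjusted p of 0.0013, from 32 reads per library. The nearest GENCODE start, of Nsf, was 13904 bp away, and no exon overlaps the region.

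The intron of Slc7a8, a basolateral amino acid transporter, had 1.33, 0.892 and 1.30 RPKM in vehicle and 1.46, 2.53 and 2.01 in butyrate (0.46 ± 0.18, unadjusted p = 0.0224 by limma). The deposited table assigns it to Cebpe, whose start is 23909 bp from its centre. At the region of Slc7a8 within 5 kb of its start the values were 2.65 ± 0.54 in vehicle and 2.25 ± 0.27 in butyrate. Atxn7, a subunit of the SAGA acetyltransferase complex, had 1.32, 1.36 and 0.548 and then 1.79, 1.85 and 1.62 RPKM (0.43 ± 0.19). Neither pair of groups overlapped. The Atxn7 value rests in part on the low vehicle library S3, without which limma gave 0.23. On the scale of reads, voom on regions of at least 25 reads gave 0.70 at Slc7a8 and 0.79 at Atxn7, larger than on log2(RPKM + 1).

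Irak2, a kinase of Toll-like receptor signalling, had 0.879, 0.727 and 1.33 RPKM in vehicle and 1.90, 1.22 and 1.55 in butyrate (0.37 ± 0.19, and 0.70 by voom on regions of at least 25 reads). Baz2b, a bromodomain protein that reads acetylated histones, had 2.06, 1.51 and 1.5 and then 2.33, 2.00 and 2.42 (0.28 ± 0.14). At both genes the groups overlapped, and neither had an unadjusted p under 0.05.

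On the lower side, after Coro2a, the intron of Cracdl (chr1:37664314-37665933, 97.5 reads per library) had 3.69, 3.74 and 2.87 RPKM in vehicle and 2.03, 2.14 and 2.52 in butyrate. The groups did not overlap, and the log2 fold change was -0.45 ± 0.12 with an unadjusted p of 0.0025 by limma. The authors' deposited table gave -0.62 and an FDR of 0.107, just beyond its threshold. A region at the start of Cracdl had 3.01 ± 0.92 and 2.30 ± 0.42 RPKM. Its log2 fold change was -0.27 ± 0.16 by limma (unadjusted p = 0.122). Voom on regions of at least 25 reads gave -0.41 there (unadjusted p = 0.046, adjusted p = 0.591).

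Slc37a1, a sugar phosphate transporter of the endoplasmic reticulum, had 3.18, 3.59 and 2.90 RPKM in vehicle and 1.89, 2.46 and 2.58 in butyrate (-0.35 ± 0.12). Mical3 had 5.99, 5.62 and 4.81 and then 4.35, 4.78 and 4.35 (-0.23 ± 0.09), from 146 reads per library. Hpcal1, a neuronal calcium sensor protein, had 2.48, 2.91 and 3.10 and then 2.25, 1.68 and 2.31 (-0.32 ± 0.13). At these 3 genes every vehicle library lay above every butyrate library.

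Mgam had 2.63, 1.87 and 2.37 RPKM in vehicle and 1.53, 1.34 and 1.93 in butyrate in its first intron, so that S6 lay just above S2 (-0.34 ± 0.15, unadjusted p = 0.0403 by limma, and -0.53 by voom on regions of at least 25 reads). At the region of the Mgam start the means were 1.42 ± 0.26 and 1.38 ± 0.10. In the plot of these 11 regions by library, the groups overlap at Baz2b, Irak2 and Mgam and are separate at the others.

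**Figure D4:**
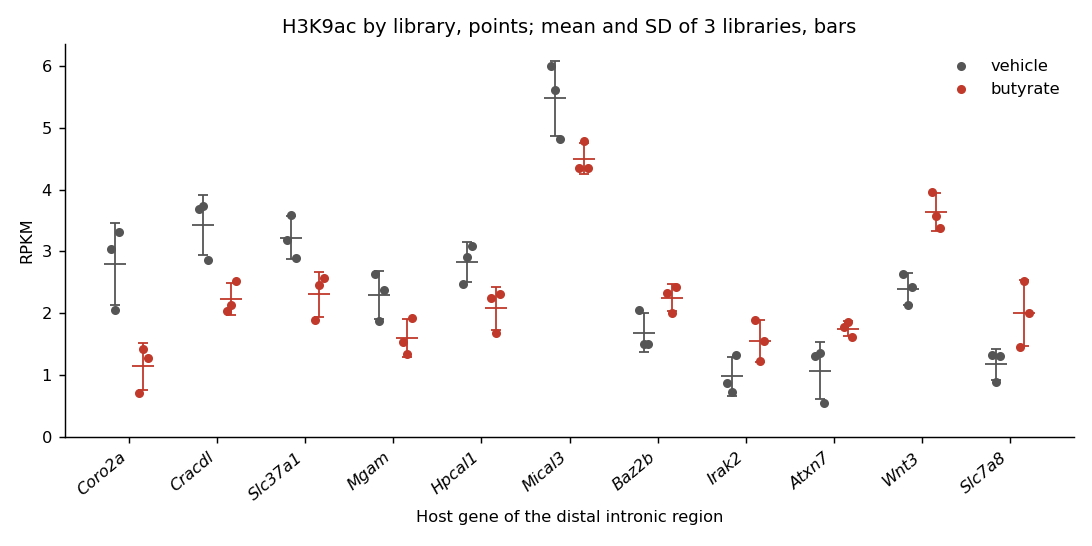
RPKM (vertical) in each of 3 vehicle libraries (grey points) and 3 butyrate libraries (red points), with mean and SD as bars, for 11 distal intronic regions of at least 25 reads with small limma p, 5 higher and 6 lower with butyrate, labelled by host gene. Wnt3 runs from 2.13 to 2.63 in vehicle and from 3.38 to 3.97 in butyrate, whereas the groups overlap at Baz2b, Irak2 and Mgam.

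Where reads were many, differences were small. The 49 distal intronic regions with at least 100 reads per library, in 48 host genes, had log2 fold changes between -0.25 and 0.14, 19 higher and 30 lower, with a median 95% margin of ± 0.24. Of these, 39 held a GENCODE start, and 1, Mical3, had an unadjusted p under 0.05. The coefficient of variation within groups had a median of 8.28% in them, 17.9% at 25 to 100 reads, 29.9% at 10 to 25 and 40.7% below 10 reads, against 12.2% in regions within 5 kb of a TSS.

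The weakest distal intronic regions were uneven between treatments. Of the 86 with fewer than 10 reads per library, 64 were higher and 22 lower with butyrate by voom, and 20 (23.3%) had a log2 fold change within 0.5 of 0. At 10 to 25 reads 151 were higher and 120 lower, at 25 to 100 reads 62 and 59, and from 100 reads on 18 and 31. The same counts over all regions of the table are not given here, so this unevenness cannot be called particular to distal intronic regions. How regions were called and merged is not given in the sources used here, and its part in these counts was not tested.

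**Figure D5:**
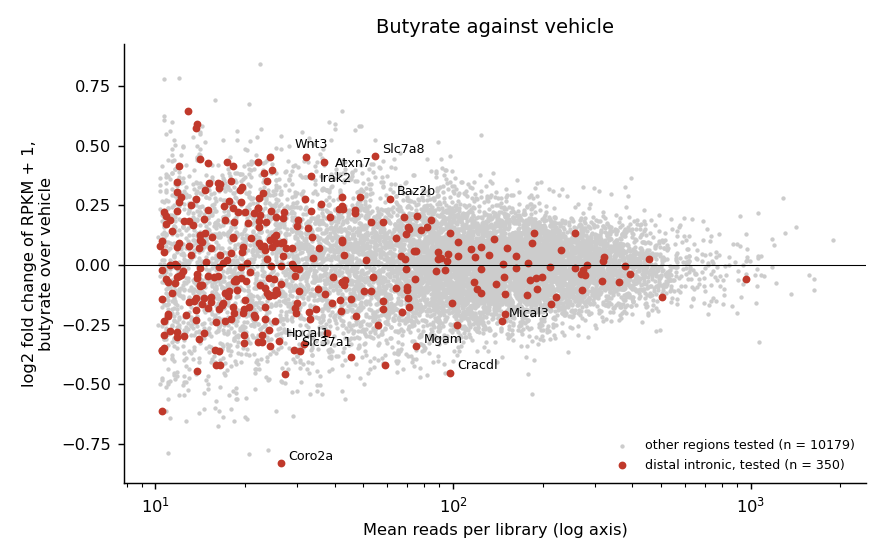
Log2 fold change of RPKM + 1, butyrate over vehicle (vertical), against mean reads per library (horizontal, log axis), for 350 distal intronic regions (red) and the other 10179 regions tested (grey), with 11 named regions labelled. The red points spread widely below 30 reads and narrow to between -0.25 and 0.14 from 100 reads on, with Coro2a lowest at -0.83.

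The distal region and the start of its host gene did not move together in a way that could be seen. The 121 pairs, in 113 host genes, had at least 25 reads in the distal region and a limma value at the start. No limit of reads was set for the start region. Pearson's r between their log2 fold changes was 0.02 and Spearman's rho -0.04. All pairs share the same 6 libraries, so this is a description across regions with no test.

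Lists of 568 genes in 19 groups had 52 distal intronic regions, and none of these was called by limma at an adjusted p of 0.05. Each list is described by the region with most reads, and further members, outside the naming rule and chosen after their values were seen, are named to complete a count. Of 42 intestinal transcription factors 5 had a distal intronic region, 3 higher and 2 lower, with a median log2 fold change of 0.01. Hnf4g, a partner of HNF4A in the enterocyte, had 1.73, 1.96 and 1.76 RPKM in vehicle and 2.02, 2.05 and 2.21 in butyrate, 128036 bp from its deposited start, in a region of 4521 bp that holds a GENCODE start (0.14 ± 0.13). The groups did not overlap, but the interval of the fold change includes 0. Nr5a2, the nuclear receptor LRH-1 of crypt and bile acid genes, had 3.31 ± 0.23 and 3.02 ± 0.37 RPKM (-0.10 ± 0.11), and Klf3, a zinc finger repressor, 2.34 ± 0.49 and 2.33 ± 0.03 (0.01 ± 0.13). Ehf, an epithelial ETS factor, had 14.3 reads per library.

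Among the enzymes that add or remove acetyl groups and their coactivators, 1 of 35 genes had a distal intronic region. This was Ncoa1, a steroid receptor coactivator, with 0.952, 0.964 and 1.43 RPKM in vehicle and 1.88, 2.06 and 1.42 in butyrate (0.40 ± 0.17, unadjusted p = 0.0374 by limma), where S6 lay below S3. Repeats cover 84.0% of that region. None of the histone deacetylase genes on the list had one.

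Of 47 chromatin and corepressor genes 7 had 9 regions, 5 higher and 4 lower, with a median of 0.03. Kdm6b led by reads at a log2 fold change of -0.13 ± 0.08. Tet1, a methylcytosine dioxygenase, was the gene of this list with an unadjusted limma p under 0.05, at 1.93 ± 0.25 RPKM in vehicle and 1.21 ± 0.38 in butyrate from 16.5 reads (-0.42 ± 0.17). Arid5b, Chd8, Kdm2a, Tnrc18 and Rere made up the others, between -0.10 and 0.31.

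Of 40 genes of absorption and the brush border 4 had a region, 1 higher and 3 lower, with a median of -0.15. Pls1, a plastin of the microvillar core, had 2.97 ± 0.08 RPKM in vehicle and 2.62 ± 0.22 in butyrate (-0.13 ± 0.11), and Mgam is given above. Myo7b, a myosin of the microvillar tip, had 1.87 ± 0.14 and 1.55 ± 0.22, and Treh, which encodes trehalase, 0.942 ± 0.41 and 1.21 ± 0.42. None of 10 genes of ileal bile acid handling had a distal intronic region.

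Of 37 genes of junctions and adhesion 4 had a region, and the 3 tested were all higher, with a median of 0.26. Cdh17, the cadherin of the intestinal epithelium, had 1.33 ± 0.12 RPKM in vehicle and 1.41 ± 0.29 in butyrate (0.04 ± 0.17). Jup, the plakoglobin of desmosomes, had 1.58 ± 0.25 and 2.10 ± 0.29 (0.26 ± 0.15), and Ctnnd1, the p120 catenin, 0.856 ± 0.06 and 1.27 ± 0.21 (0.29 ± 0.18). None of the 3 had an unadjusted p under 0.05, and Pard3, a polarity protein, was under the level limit with 7.17 reads.

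Of 43 actin and small GTPase genes 6 had 7 regions, and of the 6 tested 2 were higher and 4 lower, with a median of -0.05. Coro2a and Actn4 are given above. Myo18a, an unconventional myosin, had 0.854 ± 0.25 RPKM in vehicle and 1.79 ± 0.39 in butyrate, from 13.8 reads (0.59 ± 0.19, unadjusted p = 0.0072 by limma). Arhgef2, Myo1e and Pxn were the rest of this list.

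Butyrate transport and fatty acid oxidation were each represented by 1 gene. Abcg2, an efflux pump of the apical membrane, had 2.86, 2.96 and 2.74 RPKM in vehicle and 2.43, 2.76 and 2.43 in butyrate, with S5 above S3 (-0.12 ± 0.11). Cpt1a, the carnitine palmitoyltransferase that admits fatty acids to mitochondria, had 1.73 ± 0.25 and 1.17 ± 0.29 RPKM (-0.34 ± 0.17, unadjusted p = 0.0674 by limma). The deposited table assigns that region to Tesmin, and its centre lies 746 bp from a GENCODE start of Cpt1a. For the AP-1 and immediate early list, the region nearest to Ier2 lies 23857 bp from it over a GENCODE start of Cacna1a, a calcium channel gene, and had 3.64 ± 0.75 and 3.27 ± 0.06 RPKM.

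Signalling lists had few regions. Smad1, a transducer of BMP signals, had 2.90 ± 0.11 RPKM in vehicle and 2.72 ± 0.17 in butyrate (-0.07 ± 0.11) over 5301 bp, with 7.01 RPKM at its start. Vgll4, a TEAD cofactor that restrains YAP, had 3.49, 3.36 and 3.19 RPKM and then 1.89, 4.69 and 2.31, so that the butyrate libraries lay on both sides of vehicle. The Wnt and crypt list, which did not include Wnt3, had 1 region, nearest to Axin2 in an intron of Cep112, with 0.498 ± 0.07 and 1.11 ± 0.32 RPKM from 8.33 reads.

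Of 40 interferon, NF-kB and antigen presentation genes 4 had 5 regions. Stat3, the transcription factor of cytokine signals, led by reads and was under the level limit, as given above for the distance limit. Arntl, the clock activator BMAL1, had 1.57 ± 1.1 and 1.27 ± 0.14 RPKM (-0.10 ± 0.24), and Abcb1a, the efflux pump P-glycoprotein, 2.33 ± 0.21 and 2.21 ± 0.19 (-0.06 ± 0.12) over a GENCODE start.

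Of 34 genes of goblet, Paneth, enteroendocrine and tuft cells 2 had a distal intronic region (Creb3l1 and Trpm5). Of 34 immune cell genes 2 had one (Ikzf3 and Ms4a1). In each of these lists 10 genes had a region of any kind, against 33 of the 42 intestinal transcription factors, of which 5 had a distal intronic one. Trpm5, a cation channel of tuft cells, had 1.34 ± 0.14 RPKM in vehicle and 1.01 ± 0.07 in butyrate (-0.22 ± 0.17), with no region within 5 kb of its start. The region nearest to the B cell gene Ms4a1, at 33851 bp, holds a GENCODE start of Ms4a12 and had 3.04 ± 0.08 and 2.63 ± 0.19 RPKM (-0.16 ± 0.11). None of 23 genes of stroma, muscle, endothelium and nerve had a distal intronic region.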

How the data were processed

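H3K9ac was measured by chromatin immunoprecipitation and paired-end sequencing. Per the submitters' processing notes, STAR, Picard, HOMER and edgeR were used with mm10, without versions or roles; how regions were called is not given in the sources used here. Per the file headers, the deposited table holds RPKM for 6 libraries, group means of RPKM and of CPM made by the authors, their log2 fold change and log2 CPM, their p-value and FDR, and a distance to the TSS in bp (entered as a score in the unit check); the deposited CPM means were not used. Coordinates are as deposited, and whether they count from 0 or 1 is not given.

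The header shows the treatment of each library column, but not which labelled sample it is. Multiplied by length, 100% of the RPKM values were whole reads of a constant size within a library (tolerance 0.01 reads), so reads per region were recovered. The main test was limma 3.58.1 (R 4.3.3) on log2(RPKM + 1), with trend and robust moderation, over the 10529 regions with a mean RPKM of at least 1, and Benjamini-Hochberg adjustment over all of them. Voom on the recovered reads, with all regions or those of at least 25 mean reads, was an alternative, as were other scalings, filters, pseudocounts, distance limits and leaving out each library. The fits were also run on simulated reads, whose results are not used here. The changed regions were drawn from those with a mean RPKM of at least 1, so that weaker regions were not covered. GC content, motifs, host genes and starts came from GRCm38.p6 of RefSeq and GENCODE M21 (GRCm38); all 11251 regions lay within its chromosomes.

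Named regions were those called by any fit or in the authors' deposited table, the 6 with the smallest limma p in each direction with at least 25 reads (1 is not reported here), the 10 densest, the 5 longest, those of the 6 hosts with most regions, the region with most reads of each gene list (3 for 3 of the lists), those next to the distance limit and the 4 farthest from a TSS. The members, lists and rules were chosen with earlier results of these data known. With 3 libraries per group an exact permutation test of a single region cannot reach 0.05, and counting error alone is large below 25 reads.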

Additional observations from a re-analysis of the deposited data

How the results depend on the processing

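No paired analysis was possible because the columns carry no replicate number of the labels. All 338 alternative values of the 15 regions that were called or had the smallest limma p kept their direction. They came from 27 settings, and not every region had a value in each. Cntnap2, B4galt4 and Scap had values only without the level limit and by voom on all regions. These regions were chosen by their values in the same libraries, so a kept direction is no independent support. Limma on log2(RPKM + 1) called 0 distal intronic regions under every scaling, filter, pseudocount and left-out library that was run. Without the level limit (527 regions) 33 were higher and 21 lower at an unadjusted p under 0.05 (6.26% and 3.98%, against 3.84% and 4.37% of the whole table), the median log2 fold change was 0.0327, and the groups did not overlap at 52 higher and 43 lower (9.87% and 8.16%, against 6.83% and 7.35%). With a mean RPKM of at least 2 (95 regions) these values were 2 and 4 (2.11% and 4.21%, against 3.20% and 4.0%), -0.0487, and 2 and 10 (2.11% and 10.5%, against 6.00% and 6.97%). Without trend and robust moderation the unadjusted counts were 22 and 13 (6.29% and 3.71%, against 3.50% and 4.02%). Voom on all regions called 16 regions of the table, 2 higher and 1 lower of the 527, with 44 and 30 at an unadjusted p under 0.05 (8.35% and 5.69%, against 4.3% and 5.19%), a median of 0.0635 and the same 52 and 43 without overlap. Voom on at least 25 reads (170 regions) called 9 in the table and 1 lower of the 170, with 6 higher and 10 lower at an unadjusted p under 0.05 (3.53% and 5.88%, against 3.53% and 4.77%) and 10 higher and 12 lower without overlap (5.88% and 7.06%, against 6.2% and 6.94%). Beyond 10000 bp, of 237, 13 were higher and 19 lower without overlap (5.49% and 8.02%, against 6.11% and 6.85% of the whole table). Leaving out 1 library at a time, the unadjusted lower count ran from 5 (without S2, 1.43% against 3.27% of the whole table) to 13 (without S1, 3.71% against 3.58%). Groups of 3 against 2 did not overlap at 29 to 47 higher and 38 to 48 lower (8.29% to 13.4% and 10.9% to 13.7%, against 11% to 11.8% and 11.7% to 12.7%). The voom leave-one-out fits, chosen after seeing the data, called 0 to 1 region in each direction. Leaving out regions under 25 reads, the share of reads was 1.162% in vehicle and 1.145% in butyrate. Counting noise limits the 357 regions below 25 reads.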
